A study of Mus musculus with 6 samples.

Results

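Described here are 10 genes that mark the thick ascending limb and the distal tubule across the 6 kidney libraries of a study of the cytokine LIGHT. They are the 10 rows of the deposited table whose gene name is Umod, Slc12a1, Slc12a3, Pvalb, Calb1, Kl, Kcnj1, Trpm6, Ptger3 or Wnk1, out of 13026 genes listed. The 3 wild type libraries came from LIGHT+/+ mice and the 3 knockout libraries from LIGHT-/- mice, which lack the TNF superfamily cytokine encoded by Tnfsf14. All were adult males on a C57BL/6 J background, and in all 6 both kidneys were made ischemic for 32 min and reperfused for 24 h before RNA was taken. No unoperated kidney was analysed here, and nothing in the labels ties a library to its own animal. The p-values therefore reflect only how far these samples spread, which may be technical.

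The thick ascending limb is the last stretch of the loop of Henle, the distal convoluted tubule follows it, and both reclaim salt without water. In the ascending limb the cotransporter NKCC2 takes up sodium, potassium and chloride, ROMK returns potassium to the lumen, and the resulting voltage drives calcium and magnesium between the cells. In the distal convoluted tubule the cotransporter NCC takes up sodium and chloride under the control of WNK kinases, TRPM6 takes up magnesium, and toward the connecting tubule calbindin carries calcium through the cell. These cells also secrete uromodulin, the most abundant protein of normal urine, and make klotho, the co-receptor through which FGF23 acts on phosphate and vitamin D.

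Values are FPKM, fragments scaled by transcript length and by the mapped fragments of the library, so levels can be set side by side between genes. A difference is given as a log2 fold change, knockout minus wild type, of FPKM + 1, which understates changes of low genes, and the adjusted p is from limma over 12836 genes, with 0.05 as the threshold. The FPKM of a library totalled 299667 to 318493, of which 12.71 to 15.21% was mitochondrially encoded, and the read depth is unknown. Knockout library 3 stood apart, with a Pearson r across genes of 0.934 to 0.956 with the other 5 libraries against 0.976 to 0.989 among those 5. Each member is therefore given with it and without it, and other results also without it where that moves them by over 1.5 times.

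No member passed the test. Of the 10 genes, 0 had an adjusted p under 0.05 in limma, where 0.117% of all genes tested did, 0 had an unadjusted p under 0.05, where 8.08% did, and the smallest adjusted p was 0.635. In 0 of 10 genes did the values of the 2 genotypes fail to overlap, against 16.6% of all genes. On average 8 of the 10 were higher in the knockout, against 47.9% of all genes, with a median log2 fold change of 0.29 against -0.0097 over all genes. That direction came with knockout library 3: without it 0 of the 9 genes still tested passed in limma, where 0.0865% of genes did, 1 had an unadjusted p under 0.05 (7.16% of genes), 3 were higher and 6 lower, and the median was -0.42. All 10 passed the filter on a mean of 0.5 FPKM, but Pvalb did so only through knockout library 3 and was not tested without that library. With Pvalb kept, the median without library 3 was -0.29.

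Knockout library 3 was the highest of the 6 libraries for 9 of the 10 genes, as it was for 29.8% of all genes tested. In 7 of the 10 it was at least 1.5 times the highest of the other 5 libraries, which held for 6.00% of all genes. Both shares describe 1 library and carry no test. Pvalb is in both counts, but it passed the filter only through this library, so its place there was fixed in advance. Umod was the exception to the first count, and Slc12a3 and Trpm6 exceeded the next library by only 1.05 and 1.48 times.

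**Figure D1:**
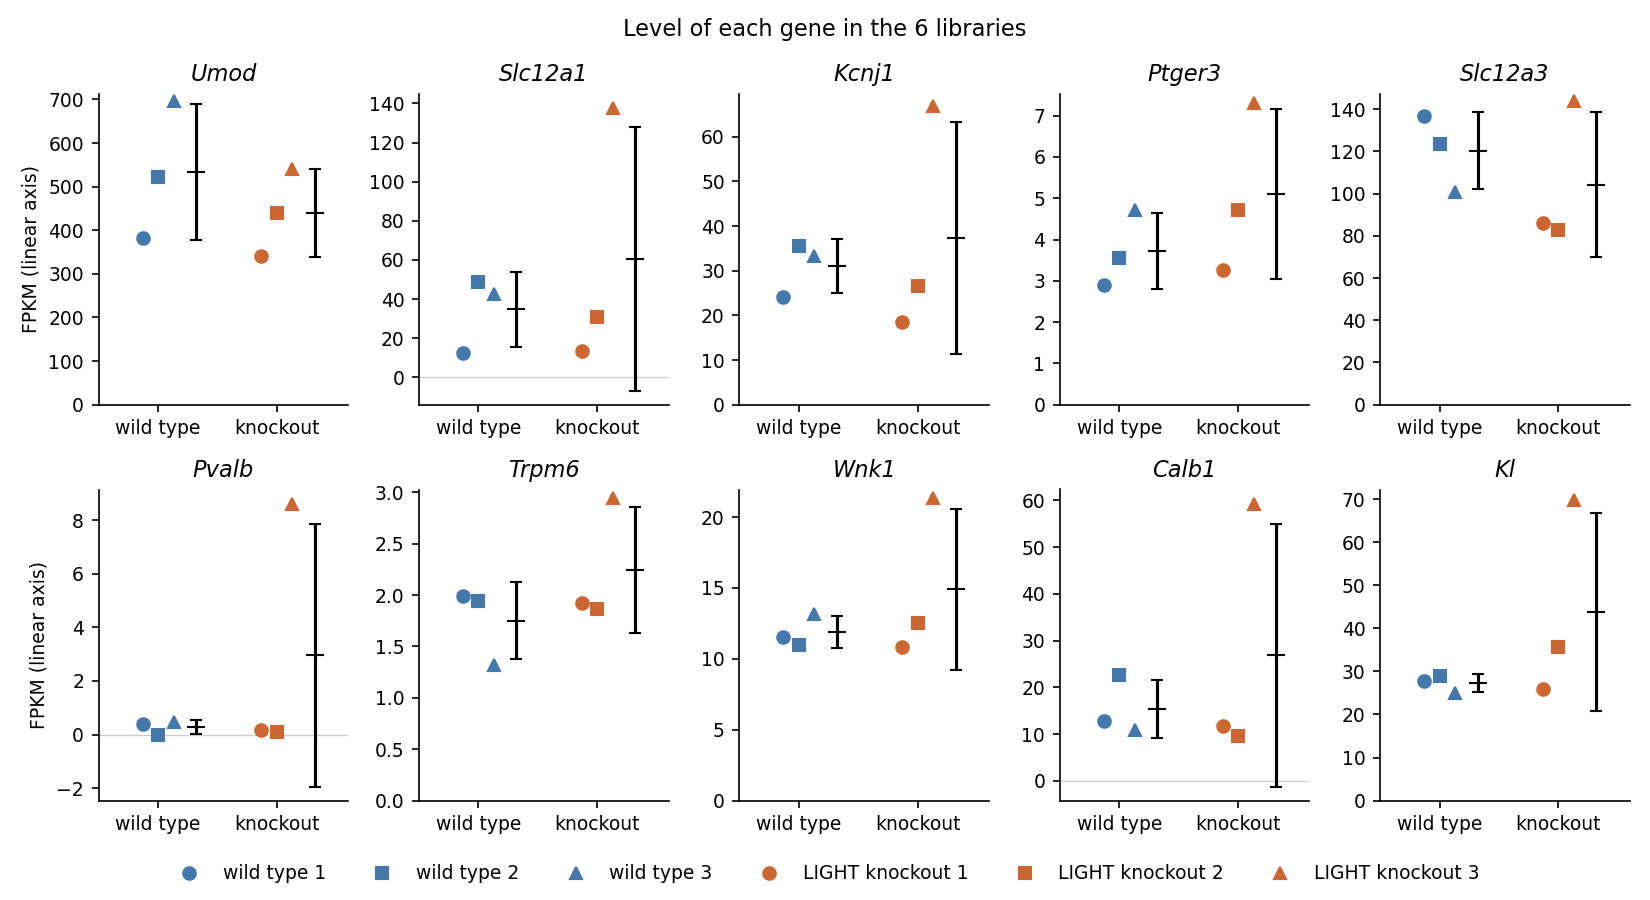
FPKM of each of the 10 genes (linear axes, 1 panel a gene) in the 3 wild type and the 3 LIGHT knockout libraries; each symbol is 1 library, and the black dash and bar are the mean and SD of 3 libraries. Knockout library 3 (orange triangle) is the highest point in 9 panels, reaching 138 FPKM for Slc12a1 and 8.62 for Pvalb, while in Umod the highest point is wild type library 3 at 696.

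The genes differed widely in level. Umod averaged 487 FPKM over the 6 libraries and ranked between 24 and 85 among all 13026 genes by level in each library. It was followed by Slc12a3 at 112, Slc12a1 at 47.7, Kl at 35.5, Kcnj1 at 34.2, Calb1 at 21.1, Wnk1 at 13.4, Ptger3 at 4.41, Trpm6 at 2.00 and Pvalb at 1.62 FPKM. The lowest library of Umod lay above the highest of Slc12a3, and the lowest of Wnk1 above the highest of Ptger3. All other neighbours in this order overlapped in their ranges. Together the 10 genes made up 0.193, 0.255 and 0.301% of the FPKM sum in wild type libraries 1 to 3 and 0.163, 0.214 and 0.353% in knockout libraries 1 to 3.

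The starts of 3 genes are shown because they mark both segments and varied unequally: Umod and Slc12a3 spanned 2.05-fold and 1.73-fold over the 6 libraries, while Pvalb exceeded 0.452 FPKM in 1 library only. Slc12a1, described with them, spanned 10.9-fold. Each line gives the 250 bases before the RefSeq transcription start, 5′ to 3′ along the gene, build GRCm38.p6. Umod lies on the minus strand (chr7:119479263-119479512), Slc12a3 on the plus strand (chr8:94328958-94329207) and Pvalb, at the upstream of its 2 listed starts, on the minus strand (chr15:78206401-78206650). Capitals mark matches to the motifs described next.
Umod: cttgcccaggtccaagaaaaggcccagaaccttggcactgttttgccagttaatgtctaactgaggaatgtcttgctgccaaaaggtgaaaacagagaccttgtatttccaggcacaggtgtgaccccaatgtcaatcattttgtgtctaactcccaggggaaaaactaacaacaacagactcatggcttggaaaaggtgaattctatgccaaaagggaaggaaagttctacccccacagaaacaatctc
Slc12a3: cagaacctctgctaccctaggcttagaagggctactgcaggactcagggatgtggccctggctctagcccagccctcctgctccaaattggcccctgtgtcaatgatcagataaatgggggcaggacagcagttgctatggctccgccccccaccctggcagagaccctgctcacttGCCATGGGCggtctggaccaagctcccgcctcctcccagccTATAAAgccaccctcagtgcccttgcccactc
Pvalb: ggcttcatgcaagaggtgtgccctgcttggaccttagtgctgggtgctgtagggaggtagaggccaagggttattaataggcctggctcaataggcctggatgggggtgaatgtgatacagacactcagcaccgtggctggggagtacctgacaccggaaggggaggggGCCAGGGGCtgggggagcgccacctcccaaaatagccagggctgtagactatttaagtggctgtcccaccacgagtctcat

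The motifs searched on both strands were the TATA box TATAAA, the AP-2 site GCCNNNGGC and the estrogen-related receptor site TCAAGGTCA. Counted from the start site, Slc12a3 held TATAAA at -32 (12.4% of all 32851 RefSeq windows of this length) and GCCNNNGGC at -73 (13.7% of windows), and Pvalb held GCCNNNGGC at -81 of its upstream start. The Umod window held none of the 3 motifs, and the Slc12a1 window, which is not printed, held none either. Over the 10 windows found for 9 of the 10 genes, 1 held TATAAA, 5 GCCNNNGGC and 0 TCAAGGTCA (0.387% of all windows). No match overlapped another in the 3 windows printed. A match of letters is a description of the sequence and not a measured binding site.

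Among genes of the thick ascending limb, Umod encodes uromodulin and lies on chromosome 7 at 119462711 to 119479282 (minus strand, GENCODE M21, the same assembly as mm10). It measured 383, 522 and 696 FPKM in wild type libraries 1 to 3 and 340, 439 and 540 in knockout libraries 1 to 3. The ranges of the genotypes overlapped, and knockout library 3 lay within the wild type range. In the fit, the log2 fold change was -0.26 ± 0.26 (SE, limma adjusted p = 0.745), and -0.42 ± 0.26 without knockout library 3 (limma adjusted p = 0.786).

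Slc12a1, the gene of NKCC2 and the target of loop diuretics, lies on chromosome 2 at 125152505 to 125230002 (plus strand). It reached 12.7, 48.9 and 42.5 FPKM in the wild type and 13.5, 30.7 and 138 in the knockout. Wild type library 1 and knockout library 1 were the lowest and nearly equal, and knockout library 3 was 2.82 times the highest of the other 5. The log2 fold change of 0.37 ± 0.87 (SE, limma adjusted p = 0.899) became -0.53 ± 0.61 without knockout library 3 and -0.22 ± 0.91 without wild type library 1. The sign of its difference thus turned on either of 2 single libraries.

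Kcnj1 encodes ROMK, the potassium channel of the luminal membrane from the ascending limb to the collecting duct, and lies on chromosome 9 at 32372493 to 32399197 (plus strand). Its values of 24.1, 35.6 and 33.3 FPKM in the wild type and 18.6, 26.6 and 66.9 in the knockout followed the same order as Slc12a1 within the knockout. Without library 3 the knockout mean was 22.6 FPKM against 31.02 ± 6.10 (SD, n = 3) in the wild type. Its log2 fold change was 0.07 ± 0.44 (SE, limma adjusted p = 0.964), turning to -0.44 ± 0.21 without knockout library 3 (limma adjusted p = 0.725) and to -0.094 ± 0.51 without wild type library 1.

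Ptger3, the gene of the prostaglandin E2 receptor EP3, which lowers cAMP and opposes vasopressin in the ascending limb, lies on chromosome 3 at 157566892 to 157645888 (plus strand). It reached 2.90, 3.56 and 4.71 FPKM in the wild type and 3.26, 4.73 and 7.31 in the knockout, and the groups overlapped. A log2 fold change of 0.33 ± 0.26 (SE, limma adjusted p = 0.6999) became 0.082 ± 0.21 without knockout library 3.

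Some members shared an order that did not follow genotype. In Umod, Slc12a1, Kcnj1 and Ptger3, the libraries numbered 1 of both genotypes were the 2 lowest of the 6. This held for 4 of the 10 genes, against 12.3% of all genes tested, and for none of the other 6. The order was not planned but seen in these values, so the counts carry no test. It did not extend to the ascending limb list described further on, where it held for 2 of 16 genes, near the share over all genes. In the other lists of related genes it held for 5 of 11 of the WNK pathway, 1 of 16 of calcium and magnesium handling, 2 of 6 receptors and cAMP genes and 6 of 10 transcription factors. Among markers of other cells it held for 5 of 6 of the endothelium, 3 of 5 of the descending and thin limb, 4 of 8 of the connecting tubule and principal cell, 3 of 7 of the intercalated cell and 1 of 6 of fibroblast and smooth muscle. It held for 0 of the proximal tubule, podocyte, macrophage, neutrophil and injured tubule markers. The labels do not say that a replicate number marks a shared day or batch.

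Among genes of the distal convoluted tubule, Slc12a3 encodes NCC, the target of thiazide diuretics, and lies on chromosome 8 at 94329201 to 94366214 (plus strand). It reached 137, 123 and 101 FPKM in the wild type and 85.9, 82.9 and 144 in the knockout. Knockout libraries 1 and 2 lay below every wild type library, as they did for 1 of the 10 genes and 12.7% of all genes, and knockout library 3 lay above every one. Its log2 fold change was -0.24 ± 0.23 (SE, limma adjusted p = 0.740). Without knockout library 3 it was -0.50 ± 0.14, with an unadjusted p of 0.0105 and a limma adjusted p of 0.549.

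Pvalb, which encodes the calcium-binding protein parvalbumin of the early distal convoluted tubule, lies on chromosome 15 at 78191114 to 78206400 (minus strand). It was listed at 0.392, 0 and 0.452 FPKM in the wild type and at 0.177, 0.0855 and 8.62 in the knockout. The first 5 of these 6 values were below 0.5 FPKM, the mean used as a filter, and 1 library carried the gene. The log2 fold change of 0.87 ± 0.81 (SE, limma adjusted p = 0.735) was 1.35 ± 1.52 with a pseudocount of 0.1.

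Trpm6, the gene of the magnesium channel of the luminal membrane, lies on chromosome 19 at 18749983 to 18892511 (plus strand) and was among the lowest of the set. Its values were 1.99, 1.95 and 1.32 FPKM in the wild type and 1.92, 1.86 and 2.95 in the knockout. The 4 libraries numbered 1 and 2 lay between 1.86 and 1.99 FPKM, and the log2 fold change was 0.23 ± 0.17 (SE, limma adjusted p = 0.688), and 0.081 ± 0.15 without knockout library 3 (limma adjusted p = 0.941). Wnk1 encodes a kinase that acts through SPAK and OSR1 on both cotransporters and, as a shorter form without kinase activity, is made mainly in the distal convoluted tubule. It lies on chromosome 6 at 119923969 to 120038672 (minus strand) and is expressed in many cell types, and its gene value does not separate the forms. It measured 11.5, 10.98 and 13.2 FPKM in the wild type and 10.8, 12.5 and 21.3 in the knockout, and the log2 fold change of 0.25 ± 0.24 (SE, limma adjusted p = 0.738) became -0.025 ± 0.12 without knockout library 3.

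Calb1, which encodes the calcium buffer calbindin of the late distal and connecting tubule, lies on chromosome 4 at 15881264 to 15908064 (plus strand). It reached 12.8, 22.5 and 10.8 FPKM in the wild type and 11.7, 9.59 and 59.3 in the knockout. Without library 3 the knockout values were near the lower end of the wild type range, while library 3 was 2.63 times the highest of the other 5. The log2 fold change was 0.36 ± 0.66 (SE, limma adjusted p = 0.865) and -0.43 ± 0.29 without knockout library 3.

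Kl, the gene of klotho, lies on chromosome 5 at 150952607 to 150993817 (plus strand) and varied least within the wild type in proportion to its level. It measured 27.8, 29.0 and 25.03 FPKM there and 26.0, 35.7 and 69.8 in the knockout. Knockout library 1 lay inside the wild type range and the other 2 above it. The log2 fold change of 0.55 ± 0.33 (SE) had the smallest adjusted p of the 10 genes (limma adjusted p = 0.635), and was 0.16 ± 0.15 without knockout library 3.

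**Figure D2:**
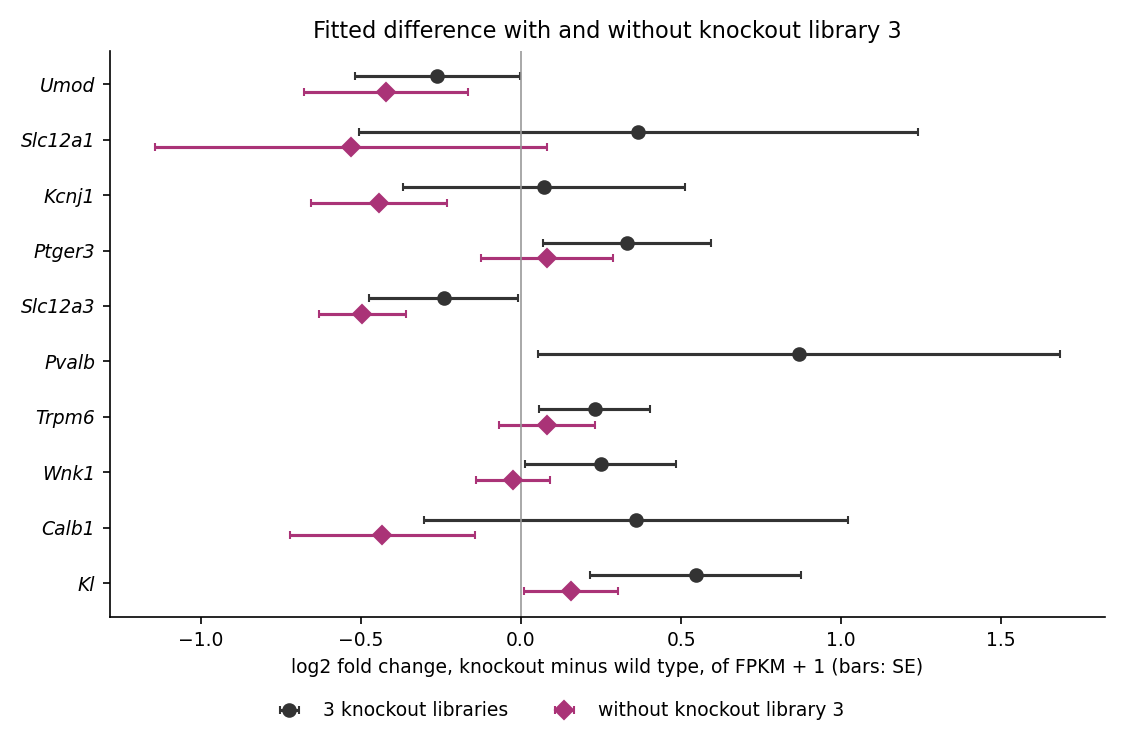
Fitted log2 fold change of FPKM + 1, knockout minus wild type (horizontal axis), of each gene with its SE, from all 6 libraries (circles) and without knockout library 3 (diamonds). Slc12a1, Kcnj1, Calb1 and Wnk1 change sign, Umod and Slc12a3 are below 0 in both, and Pvalb has no diamond because it was not tested without that library.

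The ratios of Slc12a3 and Umod to Slc12a1 within a library do not depend on its scaling, and both overlapped between the genotypes. Slc12a3 was 10.8, 2.52 and 2.37 times Slc12a1 in the wild type libraries and 6.38, 2.70 and 1.04 times in the knockout libraries. Every library thus had more NCC than NKCC2 transcript per length, by a margin that ran from 1.04 to 10.8 times. The log2 ratio differed by -0.62 between the genotypes (exact permutation test, two-sided, p = 0.7, adjusted over 3 ratios 0.7).

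Umod was 30.1, 10.7 and 16.4 times Slc12a1 in the wild type and 25.2, 14.3 and 3.92 times in the knockout, so 2 genes of the same cells changed unequally from library to library. The log2 difference between the genotypes was -0.63 (exact permutation test, two-sided, p = 0.6, adjusted 0.7). For Pvalb to Slc12a3, taken with 1 FPKM added to each gene because Pvalb was listed at 0 in 1 library, the log2 difference was 1.11 (exact permutation test, two-sided, p = 0.3, adjusted 0.7), and 0.33 without knockout library 3. With the addition, this ratio does depend on the scaling. The smallest p that 3 against 3 allows is 0.1. The differences of the ratios to Slc12a1 changed sign without knockout library 3, to 0.049 for Slc12a3 and 0.13 for Umod.

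Other genes of the same segments were taken from 5 lists of 64 genes, of which 59 were tested. None passed in limma (smallest adjusted p = 0.592), and 6 had an unadjusted p under 0.05, near the 8.08% over all genes. In the knockout 40 were higher and 19 lower, where 47.9% of all genes were higher, and the median log2 fold change was 0.16. The genotypes did not overlap in 10 of the 59, near the 16.6% over all genes. Without knockout library 3 also 0 passed, 28 were higher and 31 lower, and the median was -0.039. Knockout library 3 was the highest of 6 in 35 of the 59 and at least 1.5 times the next in 14, against 29.8 and 6.00% of all genes.

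In the list of ascending limb transport and tight junctions, 0 of 16 genes passed, 11 were higher and 5 lower, with a median of 0.12 and of -0.15 without knockout library 3. Hpn, the protease that releases uromodulin from the membrane, reached 31.1, 30.3 and 25.5 FPKM in the wild type and 34.0, 38.1 and 38.3 in the knockout, without overlap (log2 fold change 0.34 ± 0.11, SE, limma adjusted p = 0.592). Whole kidney RNA does not show which segment these transcripts came from, here or for the other listed genes. Kcnj16, a basolateral potassium channel subunit, averaged 129 ± 15.8 and 151 ± 18.1 FPKM (SD, n = 3 each), and Cldn10, a claudin of the sodium pathway between cells, 35.3 ± 2.94 and 43.8 ± 11.9. Without knockout library 3 the log2 fold change went from 0.23 to 0.15 for Kcnj16 and from 0.28 to 0.068 for Cldn10. Egf, Bsnd and Cldn14 were chosen after their values were seen. Egf, the gene of the growth factor precursor made by ascending limb and distal tubule, reached 1.88, 3.55 and 2.73 FPKM in the wild type and 1.74, 1.64 and 55.0 in the knockout. Bsnd, which encodes the chloride channel subunit barttin, stood at 5.58, 6.70 and 4.72 and at 5.32, 6.50 and 25.4. Without that library their log2 fold changes went from 1.02 to -0.44 and from 0.70 to 0.057. They are 2 of the 3 genes of these 16 in which knockout library 3 was at least 1.5 times the next, against 6.00% of all genes. Cldn14, a claudin that limits calcium passage between cells, went the other way in that library, with 4.79, 1.87 and 1.64 FPKM in the wild type and 1.63, 2.78 and 0.0767 in the knockout (log2 fold change -0.68, and -0.16 without that library).

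Of 11 tested genes of the WNK pathway and aldosterone response, 0 passed, 6 were higher and 5 lower (median 0.030), and 10 were lower without knockout library 3 (median -0.12). The 3 genes of smallest p had knockout values that all lay under the wild type range, in a list where 3 of 11 genes did not overlap (16.6% over all genes), but did not pass. Oxsr1, the gene of the WNK target kinase OSR1, stood at 16.4, 16.6 and 16.7 FPKM and at 15.7, 14.7 and 12.2 (log2 fold change -0.22 ± 0.11, SE, limma adjusted p = 0.598). Nedd4l, a ubiquitin ligase for sodium transporters, averaged 14.01 ± 0.516 and 12.7 ± 0.766 FPKM (SD, n = 3 each), and Cab39, the scaffold MO25 of those kinases, 26.8 ± 1.501 and 24.6 ± 0.165. Without knockout library 3 the log2 fold change went from -0.22 to -0.12 for Oxsr1 and from -0.13 to -0.082 for Nedd4l. Klhl3, the adaptor through which WNK kinases are degraded, was chosen after its values were seen and reached 1.52, 2.17 and 1.70 FPKM in the wild type and 1.604, 1.53 and 7.08 in the knockout, with a log2 fold change of 0.43 that became -0.12 without library 3.

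Of 16 tested genes of calcium and magnesium handling, 0 passed, 11 were higher and 5 lower, with a median of 0.21, and 12 were higher without knockout library 3 (median 0.16). Pth1r, the parathyroid hormone receptor, which is also abundant in the proximal tubule, reached 143, 129 and 102 FPKM in the wild type and 152, 183 and 175 in the knockout, without overlap (log2 fold change 0.45 ± 0.15, SE, limma adjusted p = 0.592). Cnnm4, of a family of magnesium transport proteins, averaged 3.89 ± 0.161 and 4.97 ± 0.657 FPKM (SD, n = 3 each). Vdr, the vitamin D receptor, averaged 21.7 ± 6.26 and 33.8 ± 9.62, with a log2 fold change of 0.62 that became 0.40 without knockout library 3. Trpv5, the luminal calcium channel that works beside calbindin, was chosen after its values were seen. It stood at 9.13, 6.33 and 4.30 FPKM and at 13.1, 15.5 and 6.47, so here knockout libraries 1 and 2, and not library 3, were the highest. Its log2 fold change was 0.71 (limma adjusted p = 0.598), and 1.06 without knockout library 3 (limma adjusted p = 0.510).

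Among receptors and cAMP genes 0 of 6 tested passed, 5 were higher, and the median was 0.18 (0.083 without knockout library 3). Avpr2, the vasopressin receptor, averaged 1.95 ± 0.485 and 4.34 ± 3.05 FPKM (SD, n = 3 each), Ptger1, another prostaglandin E2 receptor, measured 0.313, 0.657 and 0.965 and 0.585, 0.785 and 10.03, and Adcy6, an adenylyl cyclase, averaged 18.4 ± 2.16 and 21.7 ± 4.97. Without knockout library 3 their log2 fold changes went from 0.73 to 0.29 for Avpr2, from 0.96 to 0.052 for Ptger1 and from 0.21 to 0.034 for Adcy6. Of 10 transcription factors 0 passed, 7 were higher and 3 lower (median 0.24, and -0.044 without knockout library 3). Esrrg, an orphan nuclear receptor, averaged 9.36 ± 0.927 and 12.2 ± 1.75 FPKM (limma adjusted p = 0.592), and Tfap2b, which is needed for distal convoluted tubule development, 11.2 ± 2.41 and 7.77 ± 1.33 (limma adjusted p = 0.592).

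**Figure D3:**
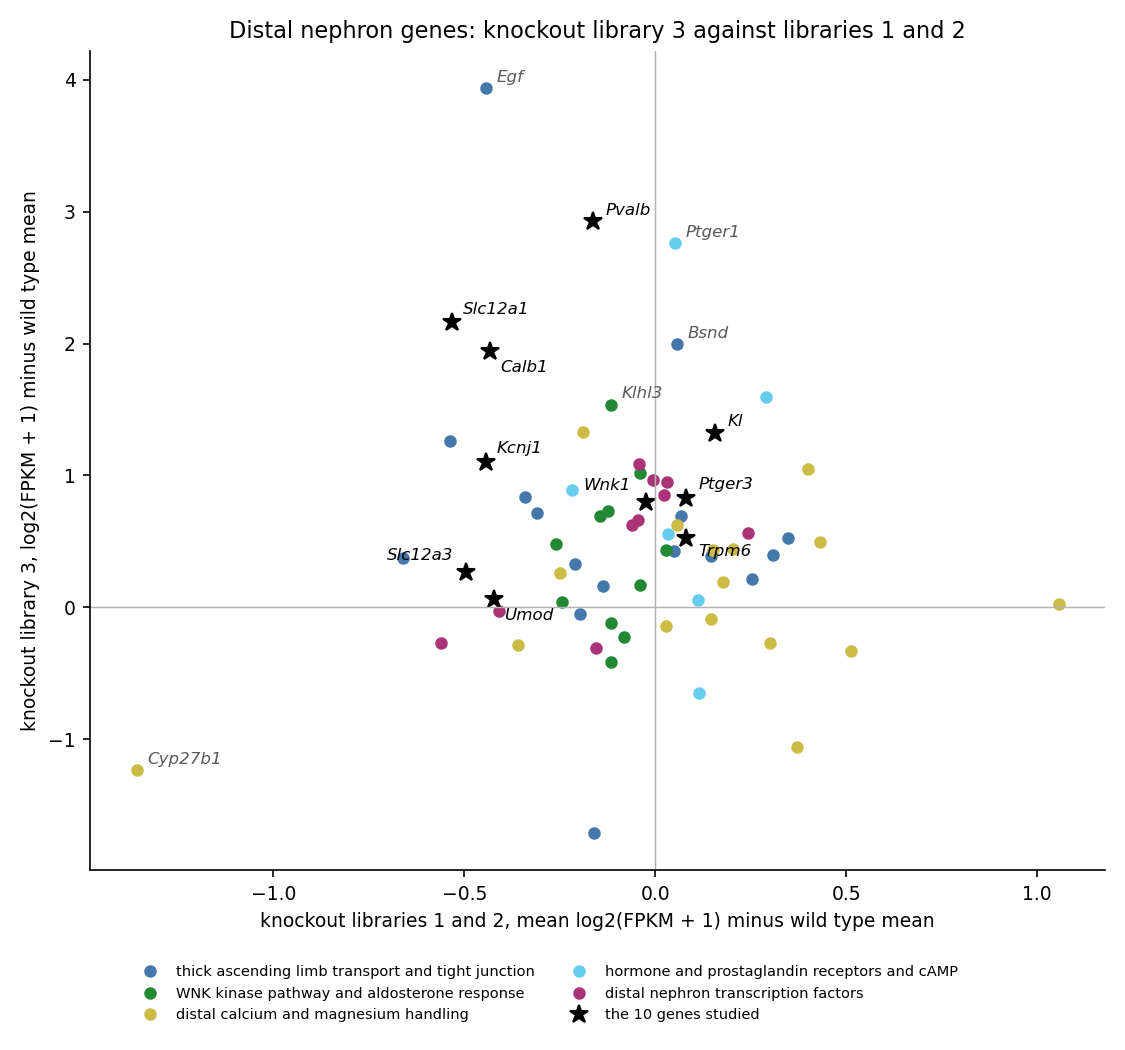
Each point is 1 gene: the difference of log2(FPKM + 1) from the wild type mean in knockout libraries 1 and 2 (horizontal axis, their mean) and in knockout library 3 (vertical axis), for the 10 genes (stars) and the 59 other tested genes of 5 lists (coloured by list). Pvalb, Slc12a1 and Calb1 lie at 2.93, 2.16 and 1.94 on the vertical axis and at -0.16, -0.53 and -0.43 on the horizontal axis, while Umod lies at 0.060 and -0.42 and Slc12a3 at 0.26 and -0.50 on the same axes.

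Summed markers of several, but not all, other cell types stood apart in knockout library 3. Their part in the results was not tested. In whole kidney RNA, fewer cells of a type and less RNA per cell cannot be told apart. The 9 injured tubule genes summed to 1784 FPKM in knockout library 3, against 6004 to 6679 in the wild type and 5065 to 6224 in the other 2 knockout libraries, and 7 of the 9 were lowest there. The 9 proximal tubule genes summed to 3215 FPKM in that library, against 1553 to 1901 in the wild type and 2050 to 2169 in the other knockout libraries.

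The 8 connecting tubule and principal cell genes summed to 544 FPKM in knockout library 3, against 130 to 208 and 120 to 179, and all 8 were highest there. The 5 descending and thin limb genes summed to 352 against 103 to 177 and 143 to 234, although only 2 of the 5 were highest there and 1 was lowest. The 7 intercalated cell genes summed to 104 against 60.6 to 71.3 and 60.3 to 72.9, and 5 were highest there. Podocyte genes summed to 82.4 FPKM against 92.0 to 108 and 81.4 to 81.6, and endothelial genes to 90.8 against 63.6 to 87.4 and 64.6 to 78.2. Fibroblast and smooth muscle genes summed to 135 against 140 to 265 and 133 to 157, macrophage genes to 111 against 88.8 to 187 and 81.1 to 85.0, and the 4 neutrophil genes listed of 5 to 19.1 against 58.9 to 85.9 and 41.8 to 60.3. None of these markers was listed at 0 in any library. The sums of the proximal tubule, thin limb, connecting tubule and principal cell, and intercalated cell genes were thus highest in library 3. So was the endothelial sum, by a smaller margin. The macrophage sum lay within the wild type range there, and the podocyte, fibroblast, neutrophil and injured tubule sums lay below it. In 2 lists the genotypes did not overlap: all 3 knockout libraries had a podocyte sum below, and a proximal tubule sum above, every wild type library. All other sums overlapped between the genotypes, and the sums were not tested.

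**Figure D4:**
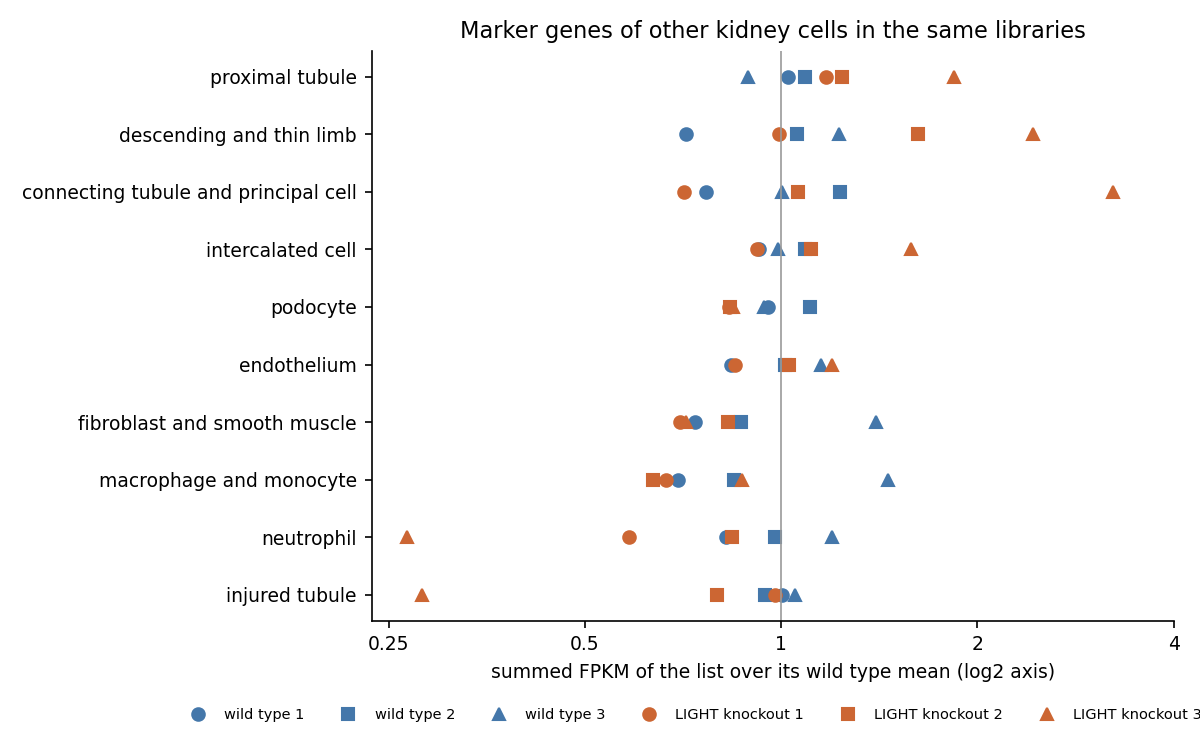
Summed FPKM of marker genes of other kidney cells in each library, divided by the mean of the 3 wild type libraries (log2 axis); colours and symbols stand for genotype and replicate number. Knockout library 3 lies at 3.22 for the connecting tubule and principal cell and 1.84 for the proximal tubule, and at 0.281 for the injured tubule and 0.267 for neutrophils.

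The genes most like Umod over the 6 libraries, among the 11425 other genes that averaged 1 FPKM or more and are not predicted models, were Ptprg, Epb41l1, F13a1, Hdgfrp3 and Arid3a, with a Pearson r of 0.991, 0.991, 0.990, 0.988 and 0.984. The same 5 had an r of 0.989 to 0.994 over the 5 libraries without knockout library 3. For Slc12a3 they were Rtn3 at 0.993, Wdr91 at 0.968, Ankfy1 at 0.959, Fbxo8 at 0.959 and Emc7 at 0.949 (0.927 to 0.990 without that library). Rtn3, a reticulon of the endoplasmic reticulum, reached 69.5, 68.0 and 55.0 FPKM in the wild type and 49.8, 47.4 and 74.3 in the knockout, with the low knockout libraries 1 and 2 and the high library 3 of Slc12a3. These are the highest of many correlations over 6 points and are given as a description only.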

How the data were processed

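Kidney RNA was measured in 6 libraries, grouped by genotype from the sample titles. The authors deposited gene-level FPKM. Per the submitters' processing notes the tools were FastQC, HISAT2 and StringTie and the build mm10, all without versions; annotation and strand setting are not given in the sources used here. Of 13026 genes listed, all had the same values in each library's own file, and no gene had both group means under 0.50043 FPKM. FPKM carry no depth, so no interval for counting error was computed.

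The 12836 genes averaging 0.5 FPKM or more were kept. log2(FPKM + 1) was fitted over all of them in limma 3.58.1 under R 4.3.3 with a mean-variance trend, two-sided, with Benjamini-Hochberg adjustment. The fit was tested on simulated data. Exact permutation tests used scipy 1.17.1. The planned ratio of Pvalb to Slc12a3 had no finite value, so 1 FPKM was added to both genes.

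The members and all gene lists were chosen with earlier results of these data known. All members were to be named, with the 3 genes of smallest p per related list, any that passed, and the 5 genes most correlated with Umod and with Slc12a3. Alternatives were other pseudocounts, filters, scalings and variance models, a replicate block and each library left out. Leaving out knockout library 3 within the full gene set was added after seeing the data. Counts of genes lowest in both libraries numbered 1, or highest in knockout library 3, were not planned either. At most 1.51% of a member's 31-base words occur in other genes' transcripts. Umod, Slc12a1, Trpm6 and Wnk1 overlap other annotated genes, which are not in the table. The transcription factor list holds 1 further gene named by the rule that is not reported here.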

Additional observations from a re-analysis of the deposited data

How the results depend on the processing

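No member passed in limma under any alternative run. The nearest was Slc12a3 with library weights, with a log2 fold change of -0.52 (limma adjusted p = 0.117). Over all genes 15 passed; this became 52 with library weights, 0 with the replicate block, and 0 to 11 with 1 library left out (0 without wild type library 1, wild type library 3 or knockout library 2). The block rests on numbers alone: deviations of same-numbered libraries correlated at 0.15, -0.13 and -0.019, and not every library correlated best with its own number.

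The median of the members, 0.29, was 0.29 to 0.35 under the other pseudocounts, filters, scalings and variance models, -0.046 with library weights, -0.42 to 0.51 with 1 library left out (negative only without knockout library 3, over 9 genes) and -0.29 over all 10 without that library. With library weights, Slc12a1, Calb1 and Kcnj1 turned to -0.13, -0.62 and -0.24. Leaving out 1 library moved Slc12a1 between -0.53 and 1.10, Calb1 between -0.43 and 0.82, Kcnj1 between -0.44 and 0.45, Wnk1 between -0.025 and 0.43, and the log2 ratios to Slc12a1 between -1.26 and 0.098 for Slc12a3 and between -1.22 and 0.13 for Umod. The lowest values of these 4 genes are those without knockout library 3; the ratio of Slc12a3 also turned without wild type library 1, as did Slc12a1 and Kcnj1. The cause was not tested. Umod and Slc12a3 stayed negative, and Kl, Ptger3 and Trpm6 positive, in every fit run. Pvalb was positive wherever it passed the filter and -0.16 without knockout library 3, where it was kept only by holding the gene set fixed. The log2 ratio of Pvalb to Slc12a3, 1.11, was 0.33 to 1.51 with 1 library left out, the lowest without knockout library 3. Depth is unknown, and Trpm6, Ptger3 and Pvalb are the low genes whose values it limits most.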

Other observations

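Cyp27b1, which makes active vitamin D and answers to klotho and FGF23 signalling, was chosen after its values were seen. In wild type libraries 1 to 3 its level was 0.990, 19.7 and 8.44 FPKM, and in the knockout 2.15, 1.57 and 2.10. The wild type libraries spread over a range that held all 3 knockout values, and the gene did not pass (limma adjusted p = 0.628). Kl, measured as RNA only, stood at 27.8, 29.0 and 25.03 FPKM in the same wild type libraries. Whether the levels of the 2 genes are linked was not tested.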
